A study of Homo sapiens with 120 samples.

Results

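Untreated cells of the Dmr-PERK line were compared with untreated cells of the Parental line at 0 h, the first time of collection, across all genes. Both are U2OS cells, a human osteosarcoma line, and the labels give the same genotype entry (WT) for both. The Dmr-PERK cells stably carry a synthetic protein in which the eIF2α kinase domain of mouse PERK is fused to DmrB, a domain derived from the FK506-binding protein FKBP12 that the ligand AP20187 pairs up. The Parental cells lack it. No ligand or stressor had been given to either line at this time, so the comparison shows how the lines differ before any treatment. It rests on 3 Dmr-PERK and 3 Parental libraries, 6 of the 120 of the series, each from a well of a 24-well plate. The sources used here do not state whether the Dmr-PERK line is 1 clone or a pool, or which promoter drives the construct. The labels do not say that the wells of a line were separate cultures, so p-values measure the spread between wells, which may be technical.

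PERK is 1 of the 4 kinases that phosphorylate eIF2α, and the response that follows is called the integrated stress response. Phosphorylated eIF2 slows translation in general while a few mRNAs are translated more, among them that of ATF4, a transcription factor that turns on amino acid synthesis and transport genes and, together with CHOP (DDIT3), stress and death genes. PERK itself sits in the membrane of the endoplasmic reticulum (ER), whose other sensors, IRE1 and ATF6, raise ER chaperones.

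The 6 libraries held 1.82e+07 to 2.26e+07 estimated counts in Dmr-PERK cells and 1.68e+07 to 2.77e+07 in Parental cells. Across genes, Pearson correlations of log2 CPM (counts relative to library size, scaled by TMM) were 0.9979 to 0.9983 between wells of a line and 0.9896 to 0.9902 between the lines. Of 57665 genes, 26998 passed the filter on low counts and were tested with edgeR's quasi-likelihood test. A gene was called at a Benjamini-Hochberg adjusted p under 0.05. At that threshold 11195 genes (41.5% of those tested) were called, 5634 higher (20.9%) and 5561 lower (20.6%) in Dmr-PERK cells. Most differences were small, with 6152 of the called genes under 1.5-fold apart, while 2804 genes (10.4%) were called and at least 2-fold apart, 977 of them higher (3.62%) and 1827 lower (6.77%). Counts of called members in the gene lists are read against these shares.

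The labelled cell type was checked against its markers. Bone lineage genes were present in both lines: RUNX2, the master regulator of osteoblasts, was at 33.5 ± 2.56 CPM in Dmr-PERK cells and 34.4 ± 1.31 CPM in Parental cells, and SPARC, a matrix protein of bone, at 1086 ± 10.6 CPM in Dmr-PERK and 974.3 ± 15.3 CPM in Parental cells (SD, n = 3 each). SP7 and IBSP, later osteoblast genes, were near 0 in both. Other bone lineage genes were low as well. COL1A2 averaged 0.568 CPM in Dmr-PERK and 1.17 CPM in Parental cells, and BGLAP 0.659 CPM in Dmr-PERK and 0.58 CPM in Parental cells. CDKN2A and TERT, which U2OS cells are known not to express, had at most 0.0325 CPM on average in either line. ATRX, also checked as a gene of the U2OS state, was expressed in both lines. It was at 162 ± 5.06 CPM in Dmr-PERK and 186 ± 6.17 CPM in Parental cells (SD, n = 3 each). Summed over 6 epithelial markers the lines had 13.3 to 14.9 CPM in Dmr-PERK and 12.9 to 14.3 CPM in Parental libraries. Over 5 blood markers the sums were 2.9 to 3.51 CPM in Dmr-PERK and 1.94 to 2.29 CPM in Parental libraries, with CD3E at 0 in all 6. Over 3 endothelial markers they were 3.04 to 4.23 CPM in Dmr-PERK and 3.13 to 3.9 CPM in Parental libraries. In bulk RNA, fewer cells that express a gene and less RNA of it per cell cannot be told apart.

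Transcripts assigned to the 2 human genes that resemble the construct were the first check of the labels. EIF2AK3, which encodes human PERK (ENSG00000172071.11, chromosome 2, 88556741 to 88627576 on GRCh38, minus strand), had 788.3, 795.9 and 797.0 CPM in Dmr-PERK cells, against 52.5, 50.7 and 47.7 CPM in Parental cells. FKBP1A, which encodes FKBP12 (ENSG00000088832.15, chromosome 20), had 1036, 1056 and 1071 CPM in Dmr-PERK cells, against 242.3, 238.7 and 253.7 CPM in Parental cells. The log2 difference was 3.98 ± 0.05 for EIF2AK3 (SE, edgeR adjusted p = 1.55e-80) and 2.11 ± 0.04 for FKBP1A (adjusted p = 2.79e-69). Estimated counts per gene do not separate RNA of the construct from RNA of the cells' own genes. In the deposited TPM, which divide by transcript length, the gap was wider. EIF2AK3 stood at 1204, 1239 and 1243 TPM in Dmr-PERK cells against 19.3, 20.9 and 19.6 TPM in Parental cells, a 61.7-fold ratio beside a 15.8-fold ratio in CPM. FKBP1A stood at 3244 ± 52.8 TPM in Dmr-PERK and 289.1 ± 8.22 TPM in Parental cells (SD, n = 3 each), an 11.2-fold ratio beside 4.31-fold in CPM. Among the 11594 genes with at least 5 CPM in both lines, EIF2AK3 and FKBP1A ranked first and second in how far the log2 TPM ratio exceeded the log2 CPM ratio (by 1.97 and 1.38), ahead of SCAND2P at 1.16. The 1st and 99th percentiles of that excess were -0.33 and 0.31. A TPM ratio above the CPM ratio means that the reads of a gene were assigned to shorter transcripts in Dmr-PERK than in Parental cells.

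**Figure D1:**
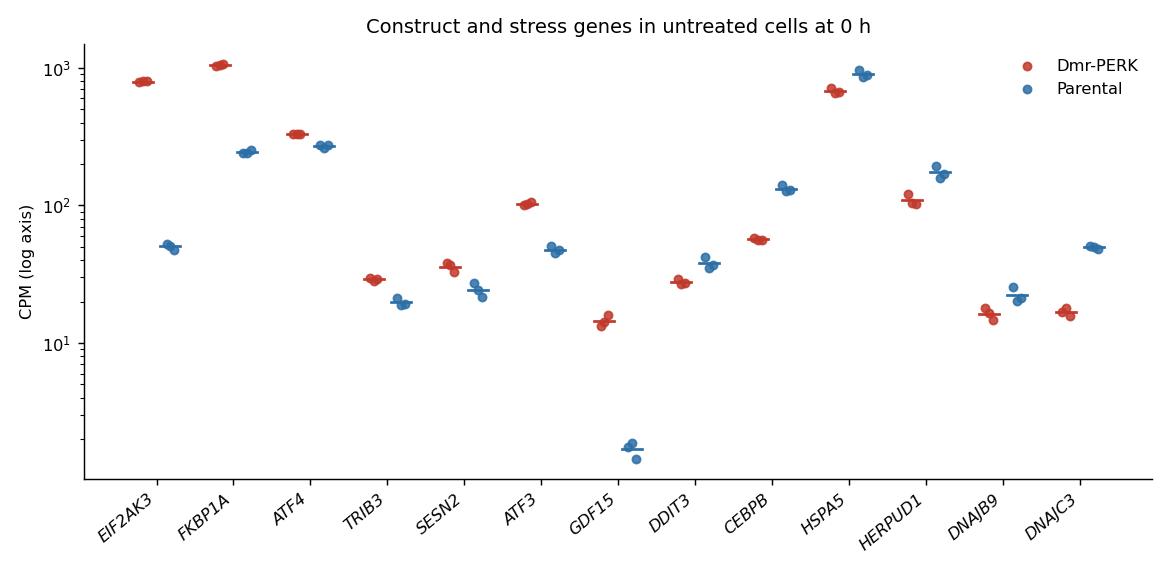
CPM of the 2 construct-related genes and of 11 stress genes in untreated cells at 0 h, on a log axis; each point is 1 library, each line a mean of 3, Dmr-PERK in red on the left of each pair and Parental in blue on the right. EIF2AK3 stands near 794 CPM in Dmr-PERK and 50.3 CPM in Parental cells, whereas ATF4, DDIT3 and HSPA5 differ by less than 1.5-fold.

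Of the other 3 eIF2α kinases, EIF2AK4, which encodes the amino acid sensor GCN2, was higher in Dmr-PERK cells, at 100.5 ± 3.47 CPM against 76.7 ± 2.88 CPM in Parental cells (log2 0.39 ± 0.04, adjusted p = 3.43e-15). EIF2AK1 (HRI, the heme-regulated kinase) differed by -0.08 ± 0.03 on the log2 scale (adjusted p = 0.0273), a call that 4 of the 6 settings with 1 library left out lost (adjusted p of 0.0718 to 0.102 without Dmr-PERK replicate 2 or 3 or Parental replicate 2 or 3), and EIF2AK2 (PKR, activated by double-stranded RNA) did not pass (-0.09 ± 0.05, adjusted p = 0.144). EIF2S1, the eIF2α subunit that all 4 phosphorylate, was at 253.5 ± 2.3 CPM in Dmr-PERK and 226.4 ± 0.252 CPM in Parental cells (log2 0.16 ± 0.04, adjusted p = 0.000144). Of the 2 phosphatase subunits that reverse the mark, PPP1R15B (CReP, the constitutive form) rose (log2 0.28 ± 0.08, adjusted p = 0.0051), and PPP1R15A (GADD34, the inducible form) did not pass (-0.13 ± 0.06, adjusted p = 0.086). PPP1R15A did pass as lower with upper-quartile scaling, with fewer libraries in the fit and from TPM (5 settings, log2 of -0.14 to -0.17, adjusted p of 0.00866 to 0.03), and EIF2AK2 in 3 settings (adjusted p of 0.00961 to 0.0352). Over the 15 genes of eIF2 and its regulators, 8 rose and 3 fell (median log2 difference 0.1, against -0.01 over all genes tested), with 5 called higher from TPM. EIF5, the GTPase-activating partner of eIF2, was at 168.8, 169.1 and 168.0 CPM in Dmr-PERK cells against 257.3, 259.2 and 260.7 CPM in Parental cells. It lies on distal chromosome 14, a stretch in which 91 of 101 genes were called lower. DNAJC3, an ER co-chaperone also known as a PERK inhibitor (p58IPK), fell to 16.9, 18.0 and 15.7 CPM in Dmr-PERK cells, against 50.7, 49.9 and 47.9 CPM in Parental cells (log2 -1.55 ± 0.06, adjusted p = 2.98e-41), and lies on chromosome 13, which was also lower as a whole.

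Of 29 targets of ATF4 and CHOP, all tested, 11 rose and 10 fell in Dmr-PERK cells, with a median log2 difference of 0.06. Of the 2 factors themselves, ATF4 rose and DDIT3 fell. ATF4 had 328.9, 331.3 and 331.3 CPM in Dmr-PERK cells, against 276.2, 262.9 and 275.5 CPM in Parental cells (log2 0.28 ± 0.04, adjusted p = 3.2e-11), and its 10-Mb neighbourhood on chromosome 22 had a median of 0.38 without it. DDIT3 had 29.3, 26.7 and 27.5 CPM in Dmr-PERK cells, against 41.8, 35.1 and 36.6 CPM in Parental cells (log2 -0.45 ± 0.08, adjusted p = 4.07e-07). The lines did not overlap in either gene, as in 50.2% of all genes tested.

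Among the targets, GDF15, a stress hormone, showed the largest rise: 13.4, 14.2 and 16.0 CPM in Dmr-PERK cells against 1.76, 1.86 and 1.44 CPM in Parental cells (log2 3.09 ± 0.17, adjusted p = 8.2e-31). ATF3, a stress-induced repressor, was at 100.4, 102.5 and 106.3 CPM in Dmr-PERK cells against 50.4, 45.3 and 47.1 CPM in Parental cells (log2 1.11 ± 0.07, adjusted p = 6.88e-28). TRIB3, a pseudokinase that damps ATF4 and CHOP, was 0.55 ± 0.09 higher (adjusted p = 4.48e-08) and SESN2, a brake on mTORC1, 0.54 ± 0.09 higher (adjusted p = 1.81e-07) on the log2 scale. CEBPB, a C/EBP factor, fell to 57.7, 55.9 and 56.1 CPM in Dmr-PERK cells, against 139.9, 127.1 and 129.6 CPM in Parental cells (log2 -1.23 ± 0.06, adjusted p = 4.7e-34), with a neighbourhood median of -0.52 on chromosome 20. ASNS and CHAC1 did not pass. ASNS, asparagine synthetase, was at 64.3, 62.2 and 62.9 CPM in Dmr-PERK and 61.3, 62.3 and 65.0 CPM in Parental cells (log2 0.01 ± 0.04, adjusted p = 0.93). CHAC1, which degrades glutathione, was at 9.28, 7.8 and 6.99 CPM in Dmr-PERK and 12.1, 8.32 and 7.41 CPM in Parental cells (log2 -0.25 ± 0.13, adjusted p = 0.103), and the ranges overlapped. Without Dmr-PERK replicate 1, Parental replicate 2 or Parental replicate 3, CHAC1 passed as lower (log2 of -0.38, -0.33 and -0.38, adjusted p = 0.0307, 0.0469 and 0.0135). For scale, 4 h of dimerizer in Dmr-PERK cells, set against untreated Dmr-PERK cells at 4 h, moved CHAC1 by 4.04, ATF3 by 3.42, SESN2 by 3.09, DDIT3 by 2.98, TRIB3 by 2.64, ASNS by 1.63 and ATF4 by 1.09 on the log2 scale. GDF15 moved by 1.72, which is smaller than its line difference of 3.09.

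Of 19 amino acid transporters 4 rose and 8 fell. Of those that fell, 2 lie in 10-Mb stretches of chromosome that were lower as a whole. Among the 13 in stretches with no such shift, 4 rose and 4 fell. SLC7A5, the leucine carrier of system L, was at 406.4 ± 8.45 CPM in Dmr-PERK and 700.3 ± 13 CPM in Parental cells, while SLC38A2, which takes up small neutral amino acids, averaged 586.5 CPM in Dmr-PERK and 396.2 CPM in Parental cells. Of 12 serine and one-carbon enzymes, 2 rose (1 with upper-quartile scaling or no filter) and 2 fell, and of 19 cytosolic tRNA synthetases 8 rose and 3 fell. Without Dmr-PERK replicate 1, 5 of these 19 were called higher, and from TPM 4.

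Most ER chaperones fell in Dmr-PERK cells. Of 19, 14 fell and 2 rose, with a median log2 difference of -0.28. HSPA5 (BiP, the main ER HSP70, ENSG00000044574.7, chromosome 9, 125234853 to 125241330 on GRCh38) had 716.7, 655.9 and 667.9 CPM in Dmr-PERK cells, against 957.6, 856.2 and 881.5 CPM in Parental cells (log2 -0.40 ± 0.04, adjusted p = 2.7e-15). HYOU1, an ER HSP110, fell to 164.8, 158.1 and 167.2 CPM in Dmr-PERK cells, against 260.4, 241.9 and 252.7 CPM in Parental cells (log2 -0.62 ± 0.04, adjusted p = 1.04e-28). PDIA6 (log2 -0.53), DNAJB11 (-0.52), DNAJB9 (-0.46), MANF (-0.40), HSP90B1 (-0.31) and CALR (-0.28) were lower as well, of which DNAJB9 was not called from TPM (-0.18 and -0.19 with added constants of 1 and 0.1, limma adjusted p = 0.322 and 0.345). SIL1, a nucleotide exchange factor for BiP, and DNAJC10, an ER reductase, were the pair that rose (0.74 and 0.22). Of the 15 members in 10-Mb bins with at least 20 expressed genes, 2 lie in bins with a median of -0.3 or lower, and among the 13 in bins with no such shift 9 fell and 1 rose. The other 4, DNAJC3 on chromosome 13 among them, are in no such bin. Of 18 genes of ER-associated degradation, 6 fell and 4 rose. HERPUD1, a part of the degradation complex that IRE1, ATF6 and ATF4 all raise, was at 120.2, 104.3 and 102.5 CPM in Dmr-PERK cells against 194.6, 158.0 and 169.7 CPM in Parental cells (log2 -0.68 ± 0.05, adjusted p = 8.49e-21). XBP1, which encodes the factor that IRE1 activates by splicing, did not pass (0.01 ± 0.05, adjusted p = 0.877).

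Promoters of 5 stress genes are shown for the motifs through which ATF6 and ATF4 are known to act, since genes of the ER group moved together. The windows are RefSeq's for GRCh38.p14, from 250 bases before to 50 after each gene's start, written 5′ to 3′ on the gene's strand, and 35116 of them were searched on both strands. The ER stress element, searched as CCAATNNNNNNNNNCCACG, was in 27 windows (0.0769%) and in those of 6 of the 18 ER chaperone genes with a window. These were CALR, CANX, CRELD2, HSP90B1, HSPA5 and PDIA6, all of which were called lower, as were 14 of the 19 ER chaperones listed. The C/EBP-ATF element, searched as TGATGNAA, was in 1270 windows (3.62%), and in 7 of 21 ATF4/CHOP targets with a window. Of these, ATF3 was called higher, CEBPG, FGF21, JDP2 and SLC3A2 were called lower, and ASNS and CHAC1 were not called. Whether either motif bears on the line differences was not tested. A match describes the letters only. Capitals mark the motif:
HSPA5 (chr9:125241294-125241593, minus strand): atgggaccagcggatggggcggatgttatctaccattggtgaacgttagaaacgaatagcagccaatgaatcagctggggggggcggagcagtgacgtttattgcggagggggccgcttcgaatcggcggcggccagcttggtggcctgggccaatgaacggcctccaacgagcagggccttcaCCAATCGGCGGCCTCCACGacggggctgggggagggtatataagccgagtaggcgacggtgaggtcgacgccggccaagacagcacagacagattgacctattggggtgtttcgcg
HSP90B1 (chr12:103930160-103930459, plus strand): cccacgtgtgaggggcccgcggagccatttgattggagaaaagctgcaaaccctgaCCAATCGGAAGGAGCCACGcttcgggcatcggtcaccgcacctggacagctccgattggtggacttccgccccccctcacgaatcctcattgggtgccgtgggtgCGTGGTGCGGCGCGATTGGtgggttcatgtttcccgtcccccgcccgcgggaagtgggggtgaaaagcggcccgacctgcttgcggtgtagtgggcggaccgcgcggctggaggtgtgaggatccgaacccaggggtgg
PDIA6 (chr2:10812736-10813035, minus strand): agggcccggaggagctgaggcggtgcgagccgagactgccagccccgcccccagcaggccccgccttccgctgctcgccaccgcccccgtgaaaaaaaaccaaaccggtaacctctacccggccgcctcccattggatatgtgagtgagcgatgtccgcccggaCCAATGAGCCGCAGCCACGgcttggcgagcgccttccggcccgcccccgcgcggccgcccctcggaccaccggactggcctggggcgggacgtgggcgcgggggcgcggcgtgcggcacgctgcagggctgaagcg
ATF3 (chr1:212565157-212565456, plus strand): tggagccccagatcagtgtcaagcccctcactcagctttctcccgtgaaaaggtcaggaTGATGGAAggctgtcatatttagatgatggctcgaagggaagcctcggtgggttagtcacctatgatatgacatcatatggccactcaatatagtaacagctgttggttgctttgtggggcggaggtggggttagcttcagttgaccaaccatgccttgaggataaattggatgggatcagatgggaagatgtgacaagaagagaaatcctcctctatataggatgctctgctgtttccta
ASNS (chr7:97872359-97872658, minus strand): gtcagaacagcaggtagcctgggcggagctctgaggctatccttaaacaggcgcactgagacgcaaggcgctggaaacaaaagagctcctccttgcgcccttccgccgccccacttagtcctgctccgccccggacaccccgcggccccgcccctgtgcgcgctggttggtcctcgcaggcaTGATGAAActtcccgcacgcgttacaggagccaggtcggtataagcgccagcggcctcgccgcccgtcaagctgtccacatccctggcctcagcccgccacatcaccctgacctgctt

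Of 25 cholesterol and fatty acid synthesis genes 14 fell and 3 rose (median -0.25), with 1 higher from TPM. Those that rose included SREBF2, which encodes SREBP-2, the transcription factor of the sterol response (0.22), and MSMO1, a sterol oxidase (0.16). STARD4, a sterol carrier, fell to 71.2 ± 0.833 CPM in Dmr-PERK cells, against 114.8 ± 2.86 CPM in Parental cells, and FADS2, a fatty acid desaturase, to 174.8 ± 3.21 CPM in Dmr-PERK cells, against 255.5 ± 12 CPM in Parental cells (SD, n = 3 each). Of 24 DNA replication genes 13 fell and 2 rose (median -0.15), with RRM2, a ribonucleotide reductase subunit, at 241.6 ± 5.07 CPM in Dmr-PERK and 383.2 ± 8.04 CPM in Parental cells. PCNA, the replication clamp, went the other way (0.34). The count of 2 that rose was 1 without Dmr-PERK replicate 1, Parental replicate 1 or Parental replicate 2, and 4 when the 6 libraries were fitted alone. Of 20 mitosis genes 8 rose and 7 fell, and the first count was 5 without Parental replicate 1 and 4 from TPM.

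Of 22 genes controlled by p53 that were tested, 16 rose and 2 fell, with a median of 0.41. MDM2, the ligase that degrades p53, had 179.9, 190.5 and 184.7 CPM in Dmr-PERK cells, against 105.6, 109.3 and 106.0 CPM in Parental cells (log2 0.79 ± 0.04, adjusted p = 6.84e-35). FAS, a death receptor, had 28.1, 24.2 and 26.1 CPM in Dmr-PERK cells against 14.3, 12.2 and 13.6 CPM in Parental cells. RRM2B, the p53-inducible ribonucleotide reductase subunit, had 224.1, 227.9 and 220.0 CPM in Dmr-PERK cells against 119.6, 122.4 and 122.3 CPM in Parental cells. None of these 3 genes overlapped between the lines. PPM1D, a phosphatase that damps the response, fell (-0.43). CDKN1A, the cell cycle inhibitor p21, was 0.18 higher. Hypoxia and glycolysis genes were higher in 12 of 17 and lower in 2 (median 0.34). CA9 was the highest (1.77), BNIP3, a mitophagy receptor, was at 1.28 ± 0.07, and ADM, adrenomedullin, was the lowest (-1.33). From TPM, under either setting, 7 of the 17 were called higher. Of the 17, 8 lie in 10-Mb bins of at least 20 genes with a median between -0.3 and 0.3. Among these 8, 4 rose and 1 fell, with a median of 0.1, against 0.06 over all genes in such bins. Interferon-stimulated genes were higher in 12 of 22 and lower in 2 (median 0.40), with IFIH1, an RNA sensor, at 6.06 and 2.05 CPM on average in Dmr-PERK and Parental cells, and IFI6 at 16.8 CPM in Dmr-PERK and 7.99 CPM in Parental cells. The count of 2 lower was 1 without any of the libraries except Dmr-PERK replicate 2, and 0 from log2(TPM + 1). Of 64 nuclear genes of the respiratory chain 29 rose and 7 fell, and 4 of those 7 lie in 10-Mb bins of at least 20 genes with a median of -0.3 or lower. Of 13 mitochondrially encoded protein genes 2 fell and none rose, MT-ND3 (-0.26) and MT-ND6 (-0.16, a call lost without Parental replicate 2). Fitted with the 6 libraries alone, 7 fell and 5 rose.

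**Figure D2:**
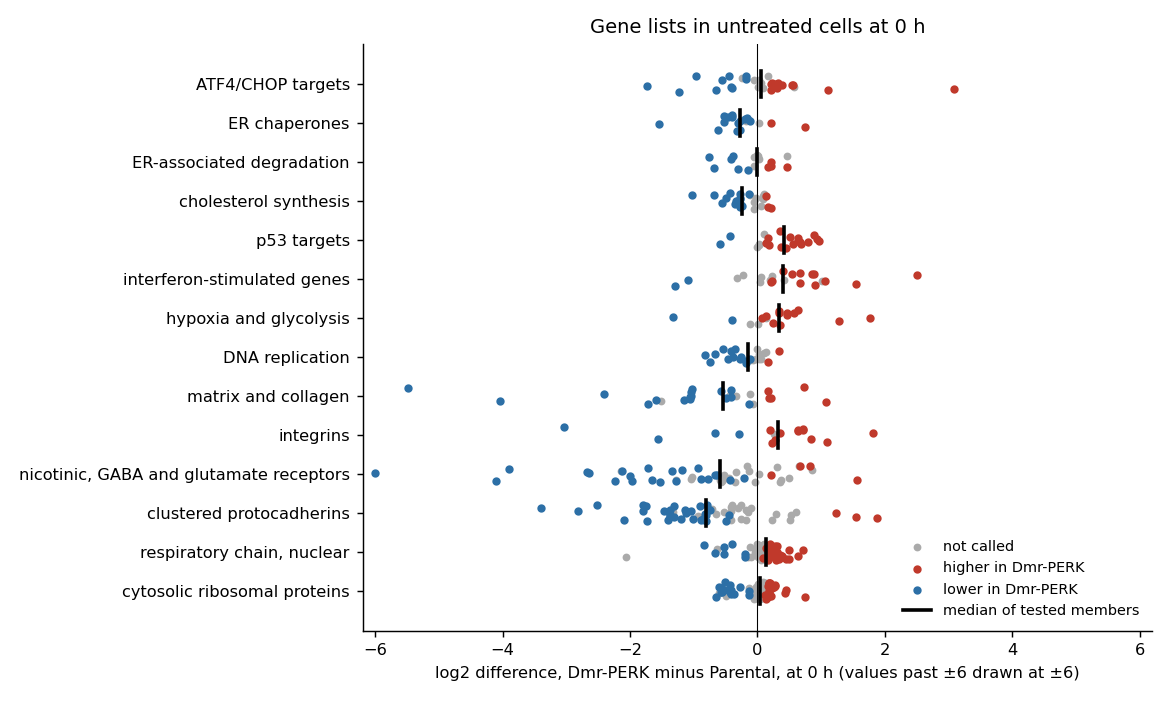
log2 difference at 0 h, Dmr-PERK minus Parental, of each tested member of 14 gene lists; red points were called higher, blue lower and grey points not called, and black bars are medians. ER chaperones and cholesterol genes sit left of 0 with medians of -0.28 and -0.25, p53 targets right of it with 0.41, and the medians of matrix genes, receptors and protocadherins are further left.

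Of 20 heat shock genes 8 rose and 5 fell, and 3 fell without Dmr-PERK replicate 3 or without Parental replicate 1. CRYAB, a small heat shock protein, had 304.5, 289.0 and 292.9 CPM in Dmr-PERK cells, against 159.5, 153.6 and 161.7 CPM in Parental cells (log2 0.90 ± 0.05, adjusted p = 1.24e-29). HSP90AB1, the constitutive cytosolic HSP90, had 1850, 1828 and 1812 CPM in Dmr-PERK cells, against 2693, 2627 and 2703 CPM in Parental cells (log2 -0.55 ± 0.03, adjusted p = 1.01e-27), so the lines parted without overlap in both. HSPA1A, an inducible HSP70, did not pass (-0.15 ± 0.10, adjusted p = 0.239) but was called lower with no filter, with the untreated libraries only and with the 6 libraries alone (adjusted p = 0.0424, 0.0188 and 0.0189), and a near-identical neighbour, HSPA1B, may share its reads. Of 26 genes regulated by the oxidative stress factor NRF2, 11 rose and 8 fell, with 5 lower when no filter was used. PRDX1, a peroxiredoxin, rose (0.38 ± 0.04, adjusted p = 8.83e-14), while FTL, the ferritin light chain, fell (-0.64), and HMOX1, heme oxygenase, did not pass (-0.08 ± 0.09, adjusted p = 0.506). FTL lies in a low stretch of chromosome 19 with a median of -0.51 without it. Of 16 matrix metalloproteinases and their inhibitors 7 rose and 6 fell. MMP13, a collagenase of bone and cartilage, was at 2.6, 2.52 and 2.87 CPM in Dmr-PERK cells against 7.68, 8.96 and 8.13 CPM in Parental cells (log2 -1.63 ± 0.16, adjusted p = 9.42e-16).

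Of 26 matrix genes tested, 16 fell and 5 rose (median -0.53). COL3A1, type III collagen, was at 4.47, 6.49 and 6.34 CPM in Dmr-PERK cells, against 252.0, 258.2 and 252.3 CPM in Parental cells (log2 -5.48 ± 0.09, adjusted p = 2.42e-71). COL5A2, a type V chain, was at 11.5, 12.7 and 11.8 CPM in Dmr-PERK cells against 196.0, 198.0 and 195.0 CPM in Parental cells (log2 -4.04 ± 0.08, adjusted p = 8.63e-67). COL1A1, the main collagen of bone, was at 1153, 1201 and 1192 CPM in Dmr-PERK cells, against 3822, 3931 and 3941 CPM in Parental cells (log2 -1.72 ± 0.06, adjusted p = 1.47e-47). It makes up most of the summed bone marker level, 2290 to 2360 CPM in Dmr-PERK and 4850 to 5000 CPM in Parental libraries. LUM (1.07) and COL8A1 (0.73) rose. Integrins, the cell's matrix receptors, went up in 11 of 16 and down in 4 (median 0.31). ITGA2, a collagen-binding chain, was at 93.6, 97.5 and 86.9 CPM in Dmr-PERK cells against 22.4, 30.7 and 26.8 CPM in Parental cells, and ITGA11, another collagen-binding chain, at 2.71 ± 0.109 CPM in Dmr-PERK against 22.5 ± 1.25 CPM in Parental cells (SD, n = 3 each).

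The 12 genes with the lowest differences among those at 5 CPM or more in Parental cells were CHRNA4, ART5, WNT6, CNGB1, RSPO3, DPYSL5, CD248, PAGE2B, COL3A1, RPL13P12, MYOCD and EMILIN1. CHRNA4, a nicotinic acetylcholine receptor subunit (ENSG00000101204.16, chromosome 20, 63343223 to 63378401), had a count of 0 in all 3 Dmr-PERK libraries, against 11.7, 12.6 and 13.7 CPM in Parental cells. Set to a floor of 3 counts over the group, it was at least 259-fold lower in Dmr-PERK cells. ART5, an ADP-ribosyltransferase, had 1 count over the 3 Dmr-PERK libraries and 707 over the Parental ones, a ratio of 682 in favour of Parental cells (95% counting interval 122 to 27000). WNT6, a WNT ligand, had 3 counts over the Dmr-PERK libraries and 863 over the Parental ones, a ratio of 277 in favour of Parental cells (95% counting interval 94.6 to 1350). CNGB1, a cyclic nucleotide-gated channel subunit, had 0.44, 0.912 and 0.598 CPM in Dmr-PERK cells, against 134.6, 125.9 and 128.9 CPM in Parental cells (log2 -7.67 ± 0.14, adjusted p = 8.13e-69). Receptors for acetylcholine, GABA and glutamate as a list had 22 lower and 4 higher of 49 tested (median -0.59), CHRNB1, the muscle nicotinic subunit, being the highest (1.57 ± 0.09). The count of 4 higher was 1 without Dmr-PERK replicate 1 and 2 without Parental replicate 1. Summed over 4 neuron markers the libraries had 20.5 to 23 CPM in Dmr-PERK and 32.4 to 33.8 CPM in Parental cells, and the part of these in the receptor counts was not tested. WNT ligands and antagonists were lower in 8 and higher in 7 of 23, and FGF and BMP/TGF-β ligands lower in 15 and higher in 5 of 36, with 9 lower when Parental replicate 1 was left out. FGF5 was at 37.1, 37.7 and 39.3 CPM in Dmr-PERK cells against 5.13, 6.15 and 4.54 CPM in Parental cells. BMP6 was at 4.16, 4.33 and 4.23 CPM in Dmr-PERK cells against 22.5, 23.9 and 22.1 CPM in Parental cells, so these ligands parted without overlap in opposite directions.

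The 12 highest were GAGE12C, PASD1, IL13RA2, TXNIP, GAGE12H, GAGE2E, MAGEA2, GAGE1, PAGE1, PAGE5, EIF2AK3 and GAGE12F. All but TXNIP and EIF2AK3 are cancer-testis genes of the X chromosome, which healthy adults express mainly in germ cells and many tumours switch on. Of 104 such genes listed, 73 passed the filter, 35 of them higher and 6 lower (median 0.81). A gene expressed in only 1 of the lines passes the filter through that line, so this count says little about the 31 that did not pass. PASD1 had 8.28, 9.31 and 8.78 CPM in Dmr-PERK cells, against 0.141, 0.0582 and 0.111 CPM in Parental cells (log2 6.26 ± 0.24, adjusted p = 1.2e-40). IL13RA2, a decoy receptor for interleukin 13, had 5.59, 5.53 and 5.36 CPM in Dmr-PERK cells against 0.211, 0.0582 and 0.111 CPM in Parental cells. The GAGE genes, summed over 9 tested members, had 74.7, 71.5 and 72.6 CPM in Dmr-PERK cells, against 3.73, 3.32 and 3.43 CPM in Parental cells. They are tandem copies, and the promoter windows of 8 of 12 are equal to that of GAGE12C at all 300 bases, so reads may be split between copies and only the sum is firm. That window is shown with its 13 CG pairs, where methylation can act, in capitals. The median over all windows is 14:
GAGE12C (chrX:49531927-49532226, plus strand): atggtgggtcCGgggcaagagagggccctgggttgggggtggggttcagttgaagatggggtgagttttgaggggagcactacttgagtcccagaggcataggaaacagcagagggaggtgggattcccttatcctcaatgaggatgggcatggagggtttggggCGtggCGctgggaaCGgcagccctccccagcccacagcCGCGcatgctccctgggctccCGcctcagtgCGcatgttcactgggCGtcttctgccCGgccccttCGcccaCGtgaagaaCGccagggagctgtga
The antigens did not all rise. PAGE2B was at 0.925, 0.905 and 1.16 CPM in Dmr-PERK cells, against 56.7, 57.2 and 59.4 CPM in Parental cells (log2 -5.88 ± 0.15, adjusted p = 1.42e-55), and PRAME at 124.3, 129.1 and 125.9 CPM in Dmr-PERK cells against 273.4, 285.2 and 291.6 CPM in Parental cells.

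Clustered protocadherins, cell-surface proteins that neurons choose among by promoter, were lower in 30 and higher in 3 of 54 tested (median -0.81). The α cluster had 10 lower and none higher of 14, the β cluster 12 lower and none higher of 19, and the γ cluster 8 lower and 3 higher of 21, where without Parental replicate 2 the list as a whole had 1 higher. HOXA genes had 7 lower and none higher of 11, with HOXA13 at 3.31 ± 0.486 CPM in Dmr-PERK and 16.2 ± 1.63 CPM in Parental cells, while HOXC genes had 6 higher and none lower of 8. Of 26 imprinted genes 10 fell and 2 rose, with 1 higher from TPM. The neighbours IGF2 and H19, which are imprinted in opposite ways, both fell: IGF2 to 12.3, 15.6 and 14.8 CPM in Dmr-PERK cells, against 89.4, 92.1 and 91.6 CPM in Parental cells, and H19 to 0.737, 0.453 and 0.488 CPM in Dmr-PERK cells, against 7.5, 6.57 and 8.18 CPM in Parental cells. HLA-C, a class I antigen-presenting chain, was at 23.2, 23.3 and 22.5 CPM in Dmr-PERK cells and 98.2, 99.4 and 97.8 CPM in Parental cells. HLA genes are near-identical to each other and polymorphic, so its reads may be split or lost against the reference.

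**Figure D3:**
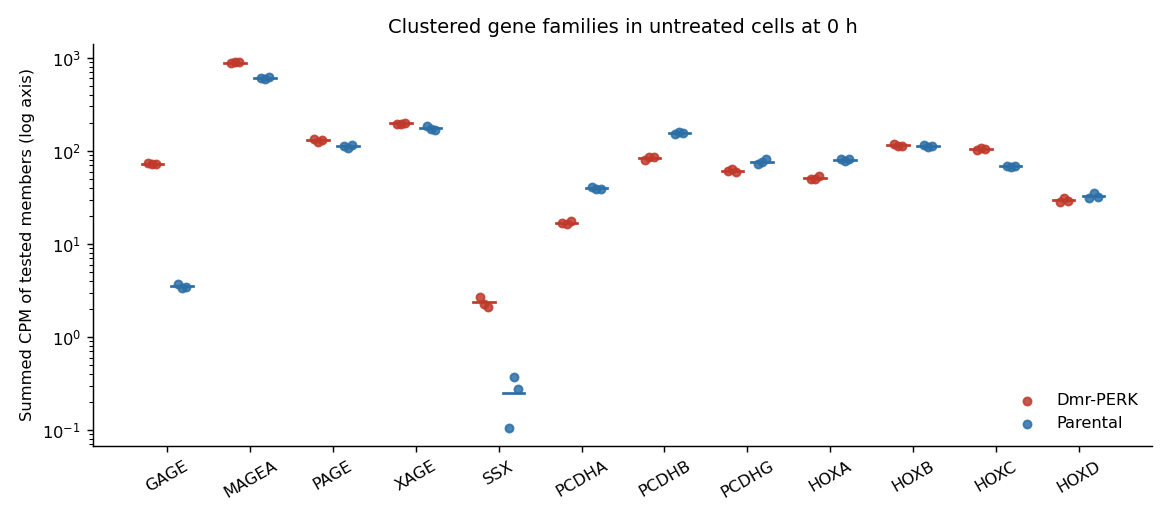
Summed CPM of the tested members of 12 clustered gene families in each library at 0 h, on a log axis; Dmr-PERK points are red and on the left of each pair, Parental points blue and on the right, and short lines are means of 3. GAGE sums lie between 71.5 and 74.7 CPM in Dmr-PERK and between 3.32 and 3.73 CPM in Parental libraries, the protocadherin and HOXA sums are lower and the HOXC sum higher in Dmr-PERK cells.

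In parts of several chromosomes, neighbouring genes differed between the lines in the same direction. Genes with a mean of at least 1 CPM were grouped into bins of 10 Mb on GRCh38, and the 249 bins with at least 20 genes were kept. In 20 bins the median log2 difference was -0.3 or lower and in 7 it was 0.3 or higher. The 20 low bins held 10.1% of the binned genes and 27.8% of those called lower, and the 7 high bins 2.14% of the genes and 4.62% of those called higher. The bins were picked by the same differences that gave the calls. An excess of calls in them was therefore fixed in advance, and these shares are no test of position. Chromosome 13 was lower along much of its length, with a median of -0.67 over 453 tested genes. Its median over genes of at least 5 CPM was -0.68, -0.68 and -0.70 in the 3 Dmr-PERK libraries taken singly against the Parental mean. With 3 libraries a line the exact permutation test cannot go below p = 0.1, the value that chromosome 13 gave. On chromosome 14, from 90000001 to the end, 91 of 101 binned genes were called lower and none higher, with bin medians of -0.82 and -0.96, while the chromosome as a whole had a median of -0.07. AKT1, a growth kinase, was at 51.6, 57.8 and 56.8 CPM in Dmr-PERK cells, against 120.9, 122.5 and 127.5 CPM in Parental cells, and HSP90AA1, the stress-inducible HSP90, at 432.3, 429.7 and 424.9 CPM in Dmr-PERK cells against 844.5, 824.5 and 832.7 CPM in Parental cells. Both lie on chromosome 14, HSP90AA1 at 102080738 to 102139699. RB1, the retinoblastoma tumour suppressor on chromosome 13, was at 32.7, 31.5 and 31.2 CPM in Dmr-PERK cells against 68.2, 65.3 and 65.0 CPM in Parental cells. AKT1 and RB1 were picked after their values were seen.

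Chromosome 16 from 80000001 had a median of -0.69, chromosome 19 from 20000001 to 50000000 medians of -0.60, -0.57 and -0.51, and the ends of chromosomes 2, 3 and 20 and distal chromosome 17 medians between -0.30 and -0.55. On chromosome 6 from 30000001 to 40000000 the median was -0.35, with 97 of 146 genes called lower and 8 higher. Distal chromosome 10 (110000001 to 130000000) was higher, with medians of 0.53 and 0.62 and 60 of 75 genes called higher, and so were chromosome 4 from 20000001 to 50000000 (0.33 to 0.51) and chromosome 22 from 30000001 to 40000000 (0.38). Zinc finger genes, many of which lie in clusters on chromosome 19, were lower in 206 and higher in 66 of 514, with 40 higher from log2(TPM + 0.1). On chromosome 19 the counts were 118 lower and 15 higher of 245, and elsewhere 88 lower and 51 higher of 269. Of the 15 ribosomal protein genes that fell, out of 85 tested with 20 higher, 9 lie in these low bins. The count of 20 was 12 without Dmr-PERK replicate 3, 13 without Parental replicate 2 and 41 when the 6 libraries at 0 h were fitted alone. DNA was not measured in these libraries.

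**Figure D4:**
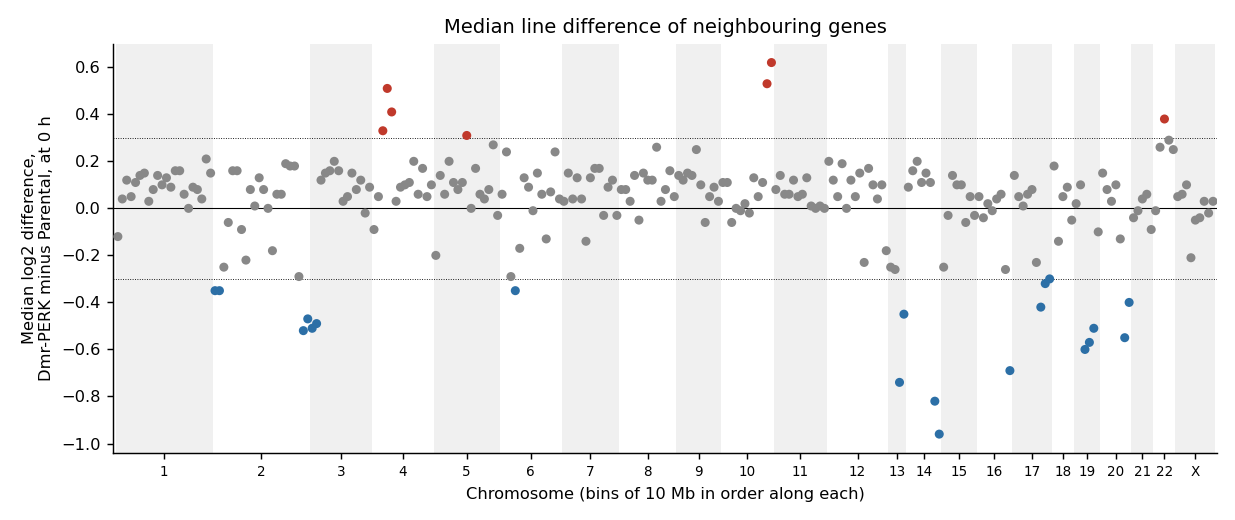
Median log2 difference at 0 h, Dmr-PERK minus Parental, in each of 249 bins of 10 Mb with at least 20 genes, in order along chromosomes 1 to 22 and X; blue bins are at -0.3 or lower and red bins at 0.3 or higher. The 2 bins at the end of chromosome 14 lie at -0.82 and -0.96, 3 in a row on chromosome 19 between -0.51 and -0.60, those drawn on chromosome 13 between -0.25 and -0.74, and 2 on distal chromosome 10 above 0.5.

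Untreated wells collected at 4, 8, 16 and 24 h, 12 in each line, gave the same comparison in other libraries. Their means do not enter the difference at 0 h. All 120 libraries were filtered, scaled and fitted together, however, and share 1 estimate of the spread, so the p-values are not independent. At the later times 15988 genes (59.2%) were called. Of the 11195 calls at 0 h, 9933 were called in the same direction later (88.7% of the calls at 0 h and 62.1% of the later ones) and 134 in the opposite one. All 27 shifted bins had a median of the same sign later. Across the 12488 genes with at least 5 CPM, which are not independent replicates, the line differences at 0 h and later had r = 0.955 and rho = 0.91. A test of whether the difference at 0 h departs from the later mean (an interaction in the same fit) called 1577 genes (5.84%), 908 positive (3.36%) and 669 negative (2.48%), and in 479 of these the line differences had opposite signs. Upper-quartile scaling gave 713 positive and 1072 negative. Without Parental replicate 1, 1021 genes were called.

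TXNIP, an α-arrestin that binds thioredoxin and limits glucose uptake, had the highest interaction among genes of at least 5 CPM. It was at 20.7, 28.6 and 22.7 CPM in Dmr-PERK cells at 0 h, against 0.88, 0.931 and 0.664 CPM in Parental cells (log2 4.84 ± 0.19, adjusted p = 6.75e-41). Later the gap was smaller (2.57, interaction 2.27, adjusted p = 2.01e-11). TXNIP averaged 24.0, 18.1, 24.1, 11.9 and 21.0 CPM in Dmr-PERK cells at 0, 4, 8, 16 and 24 h, and 0.825, 1.36, 3.88, 3.37 and 5.07 CPM in Parental cells at the same times. ARRDC4, a related arrestin that glucose also induces, had 5.46, 6.84 and 5.85 CPM at 0 h in Dmr-PERK cells, against 2.01, 2.09 and 1.44 CPM in Parental cells, and an interaction of 1.08 (adjusted p = 7.87e-07). The TXNIP promoter is shown for its carbohydrate response element, searched as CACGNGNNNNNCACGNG and found in 20 of 35116 windows (0.057%), in capitals:
TXNIP (chr1:145996530-145996829, minus strand): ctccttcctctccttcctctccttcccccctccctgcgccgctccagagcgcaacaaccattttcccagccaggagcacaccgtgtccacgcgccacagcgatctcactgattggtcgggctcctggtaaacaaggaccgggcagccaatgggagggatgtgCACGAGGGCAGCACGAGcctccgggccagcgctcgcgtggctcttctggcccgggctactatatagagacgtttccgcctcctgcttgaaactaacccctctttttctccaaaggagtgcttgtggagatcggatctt

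Line differences of ER genes also depended on time. Of the 19 ER chaperones 8 had a negative interaction and none a positive one, and of 25 cholesterol genes 14 were negative and none positive. HERPUD1 had an interaction of -0.80 (adjusted p = 2.06e-19), DNAJB9 of -0.75 (6.94e-13, not called from TPM) and HSPA5 of -0.31 (9e-08). HSPA5 averaged 680.1, 995.4, 913.8, 647.1 and 560.5 CPM in Dmr-PERK cells from 0 to 24 h, and 898.4, 1307, 930.9, 572.3 and 608.5 CPM in Parental cells. DDIT3 averaged 10.7, 7.72, 8.12 and 10.8 CPM in Dmr-PERK cells and 12.6, 6.88, 8.37 and 10.1 CPM in Parental cells at 4, 8, 16 and 24 h, and its line difference was -0.01 over these times. For ATF4 the interaction was 0.32 (adjusted p = 6.23e-10): the later line difference was -0.04. Of the 29 ATF4/CHOP targets 12 had a positive interaction and 3 a negative one. By the interaction test the line differences of DDIT3, ATF4, HSPA5 and HERPUD1 at 0 h departed from those later, whereas for TRIB3 (0.55 at 0 h, 0.50 later, interaction adjusted p = 0.885) and GDF15 (3.09 and 3.18, adjusted p = 0.95) no departure was shown. EIF2AK3 itself had an interaction of -1.06 (adjusted p = 7.29e-29), with 793.8, 946.1, 985.1, 1011 and 915.0 CPM in Dmr-PERK and 50.3, 39.5, 26.0, 25.8 and 27.6 CPM in Parental cells over the 5 times. MDM2 (0.45) and other p53 targets, 13 of 22, had positive interactions, with 3 negative.

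**Figure D5:**
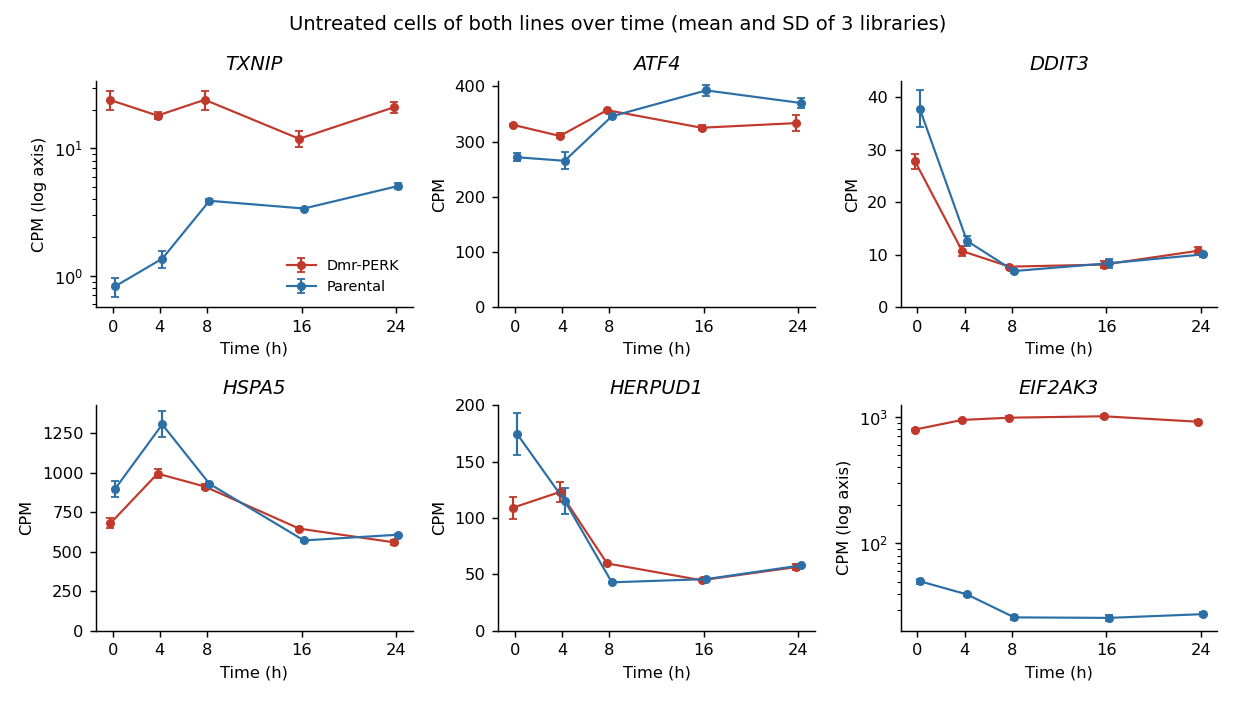
Mean CPM (± SD of 3 libraries) of 6 genes in untreated wells at 0, 4, 8, 16 and 24 h, Dmr-PERK in red and Parental in blue; TXNIP and EIF2AK3 have log axes. HERPUD1 is at 109.0 CPM in Dmr-PERK and 174.1 CPM in Parental cells at 0 h, and at 59.7 CPM in Dmr-PERK and 43.0 CPM in Parental cells at 8 h, the opposite order, TXNIP climbs in Parental cells, and EIF2AK3 stays high in Dmr-PERK cells at all 5 times.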

How the data were processed

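RNA of U2OS cells in 24-well plates was sequenced, and the authors deposited 2 tables with 1 row per gene for 120 libraries: estimated counts, and transcript abundances (TPM, which divide by transcript length) with a constant of 0.063122 at a count of 0. Per the submitters' processing notes, FastQC 0.11.5 and Salmon 0.9.1 were used with GRCh38. The sources used here do not state whether reads were assigned by strand, so overlapping and antisense genes may share reads. Of nonzero counts, 49.5% were whole within 1e-05, and all were rounded to whole numbers.

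Counts of all 120 libraries (40 groups of 3, which share 1 estimate of the spread) were scaled by TMM (factors 0.839 to 1.169) and fitted with edgeR 4.0.16 in R 4.3.3 (quasi-likelihood, filterByExpr with a minimum count of 10, residual df 80, prior df 12.7). Log2 differences are Dmr-PERK minus Parental, with Benjamini-Hochberg adjustment over 26998 genes. Intervals and floors (3 counts over a group) cover counting error only. At an unadjusted p under 0.05 the comparison at 0 h gave 12825 genes. Positions come from GENCODE 29 on GRCh38 (53330 of 57665 genes matched), promoter windows from RefSeq. The edgeR comparison at 0 h and the interaction were tested before use on counts simulated for the untreated libraries. The DESeq2 and limma fits were not tested in this way.

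The members and the 44 gene lists were chosen with earlier results of these data known. The symbols that only share a prefix with cancer-testis families (SSX2IP and CTAGE5) were dropped from that list. Genes were named by rule: the 12 highest and 12 lowest called differences at 5 CPM or more in the higher line without overlap; genes with 0 counts in 1 line; the 3 smallest adjusted p values of each list; a panel of stress genes; and the extreme interaction values at 5 CPM or more. Further list members and the chromosome 13 and 14 genes that are named were picked after their values were seen. Alternatives were other scalings, DESeq2 1.42.0, no filter, fewer libraries, a replicate block, limma 3.58.1 on log2(TPM + 1) and log2(TPM + 0.1), and each library of 0 h left out.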

Additional observations from a re-analysis of the deposited data

Results flagged for a closer look

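For 22 named genes the line difference at 0 h departed from the mean line difference at 4 to 24 h by the interaction test of the same edgeR fit; values are log2 differences at 0 h minus those later, with edgeR adjusted p-values. Groups of 3 were not tested for outlying samples. Positive values were found for TXNIP (2.27, adjusted p = 2.01e-11), CCIN (1.27, 0.00162), ALPP (1.26, 2.36e-08), HKDC1 (1.14, 0.000427), ARRDC4 (1.08, 7.87e-07), CCBE1 (1.05, 2.35e-13), ATF3 (0.41, 0.000112), SESN2 (0.35, 0.0132), ATF4 (0.32, 6.23e-10) and ASNS (0.19, 0.00611). A positive value means a line difference further towards Dmr-PERK cells at 0 h than later, not always a gap at 0 h. ASNS had a log2 difference of 0.01 at 0 h, which was not called. CCBE1, a secreted protein of lymphatic growth, had 49.1, 47.1 and 48.0 CPM in Dmr-PERK cells at 0 h, against 6.19, 4.79 and 5.28 CPM in Parental cells. ALPP, placental alkaline phosphatase, had 7.77, 5.76 and 8.99 CPM in Dmr-PERK cells, against 4.75, 4.71 and 4.59 CPM in Parental cells.

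Negative values were found for PASD1 (-2.58, adjusted p = 0.0145), LINC00473 (-1.85, 1.48e-15), UBE2QL1 (-1.69, 1.14e-12), CSF2 (-1.54, 0.00122), ONECUT3 (-1.36, 1.11e-05), RGS4 (-1.29, 9.02e-08), EIF2AK3 (-1.06, 7.29e-29), HERPUD1 (-0.80, 2.06e-19), DNAJB9 (-0.75, 6.94e-13), DDIT3 (-0.45, 0.000454), HSPA5 (-0.31, 9e-08) and FKBP1A (-0.15, 0.0138). The value of PASD1 rests on few Parental counts. PASD1 averaged 0.103 CPM in Parental cells at 0 h, and 0, 0.0404, 0.0239 and 0.0361 CPM at 4, 8, 16 and 24 h. From TPM its interaction was not called (limma adjusted p = 0.338 and 0.674 with added constants of 1 and 0.1). LINC00473, a long noncoding RNA induced by cAMP signalling, had 7.06, 6.38 and 6.46 CPM in Dmr-PERK cells at 0 h, against 9.34, 10.3 and 10.8 CPM in Parental cells. CSF2, the cytokine GM-CSF, had 3.29, 2.62 and 2.6 CPM in Dmr-PERK cells, against 17.2, 16.6 and 16.7 CPM in Parental cells. RGS4, which ends G-protein signals, had 3.42, 3.57 and 3.63 CPM in Dmr-PERK cells, against 27.4, 32.1 and 28.2 CPM in Parental cells. Leaving out 1 library ended some of these calls: without Parental replicate 1 those of PASD1 (adjusted p = 0.238), CCIN (0.0584) and ASNS (0.057), without Dmr-PERK replicate 1, Dmr-PERK replicate 2 or Parental replicate 3 that of SESN2 (0.0911, 0.0507 and 0.124), and without Dmr-PERK replicate 1 or Parental replicate 3 that of FKBP1A (0.0653 and 0.114).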

How the results depend on the processing

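The count of genes called at 0 h stayed within 1.5 times under every alternative run, between 9339 with log2(TPM + 0.1) and 11788 with the untreated libraries only, and between 9901 and 10465 with 1 library left out. DESeq2 called 11021. The count at 4 to 24 h lay between 14068 and 16206. The count at 0 h of at least 2-fold was 1025 with log2(TPM + 1), whose constant shrinks low genes, and 2563 to 2793 with 1 library left out. The count of interaction calls was 2429 with the untreated libraries only, 926 with log2(TPM + 1), 759 with log2(TPM + 0.1) and 1021 to 1429 with 1 library left out; the cause was not tested. Median differences with 1 library left out were -0.71 to -0.65 on chromosome 13, -0.24 to -0.19 on chromosome 19 and 0.18 to 0.21 on chromosome 22, where DESeq2-type size factors gave 0.20. Over genes of at least 5 CPM they were -0.16 on chromosome 19 and 0.30 on chromosome 22. Of 2490 values for 166 named genes at 0 h, 2447 kept direction and side of the threshold, 27 lost the call, 14 gained it and 2 reversed, both of GCLM, at -0.12 from counts and 0.12 with either TPM setting; the cause was not tested. Of 812 interaction values of 58 genes, 743 kept theirs and 69 lost the call. Same-numbered libraries of the 2 lines deviated with correlations of 0.123, 0.013 and 0.126 (others -0.157 to 0.035), so their numbers were not taken as pairs. With the replicate block 11215 genes were called at 0 h, 15997 later and 1620 for the interaction, and Dmr-PERK replicate 2 correlated best with Parental replicate 3. Genes near the filter, with few counts, are the least certain.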

Other observations

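Other gene groups also differed between the lines at 0 h. Of 14 targets of YAP and TEAD, which answer to cell shape and adhesion, 8 rose and 4 fell in Dmr-PERK cells. CYR61, a matricellular protein, had 1364, 1405 and 1394 CPM in Dmr-PERK cells, against 828.7, 792.8 and 811.9 CPM in Parental cells (log2 0.77 ± 0.05, edgeR adjusted p = 5.84e-24). LATS2, a kinase that restrains YAP and lies on chromosome 13, had 51.3, 58.9 and 54.6 CPM in Dmr-PERK cells, against 108.9, 113.3 and 121.7 CPM in Parental cells. Among metal-binding genes, MT1E and MT2A, 2 metallothioneins, rose (0.87 and 0.70), while SLC30A1, a zinc exporter that the same factor induces, fell (-0.36), each with no overlap between the lines. Metallothioneins are similar in sequence, so reads may be split between them. Of 20 immediate early genes 8 rose and 5 fell, with DUSP5, an ERK phosphatase, at 66.0, 64.0 and 68.3 CPM in Dmr-PERK cells, against 22.5, 21.1 and 21.7 CPM in Parental cells. DUSP5 lies in a stretch of chromosome 10 that was higher as a whole.

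Of 19 NF-κB and inflammatory genes 4 rose and 5 fell, with 8 lower when only the untreated libraries were fitted and 2 higher from log2(TPM + 0.1). LIF, a cytokine of the interleukin 6 family, had 192.0, 170.7 and 182.8 CPM in Dmr-PERK cells, against 349.4, 316.2 and 334.1 CPM in Parental cells. THY1, a surface marker of mesenchymal cells, had 39.4, 39.2 and 45.8 CPM in Dmr-PERK cells, against 131.3, 126.7 and 127.9 CPM in Parental cells (log2 -1.64 ± 0.05, adjusted p = 1.9e-47). GMCL1P2, picked after its values were seen, had a mean of 4.31 CPM in Dmr-PERK cells and a count of 0 in all 3 Parental libraries, at least 91.5-fold higher against a floor of 3 counts over the group.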
